A study of Mus musculus with 2 samples.

Results

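The genes described here encode the proteasome, the protease that degrades ubiquitin-tagged proteins, in ES-E14 mouse embryonic stem cells. They were chosen by symbol: all protein-coding genes named Psma, Psmb, Psmc, Psmd, Psme, Psmf or Psmg followed by a digit, which gave 50 of the 43346 genes in the tables. None was chosen for its measured level. The 26S particle is built from a 20S barrel, in which rings of alpha subunits close the ends and rings of beta subunits hold the proteolytic sites, and from a 19S cap that binds ubiquitin chains, removes them and unfolds the substrate with a ring of ATPases. In cells exposed to interferon gamma the catalytic subunits Psmb6, Psmb7 and Psmb5 can be replaced in new particles by Psmb9, Psmb10 and Psmb8, which gives the immunoproteasome, known for making peptides for MHC class I. Each particle holds its subunits in fixed proportion, and most cells make them together.

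ES-E14 is an embryonic stem cell line from a male 129/Ola mouse embryo, and total RNA was sequenced from it in 2 libraries, labelled biological replicates 1 and 2. No treatment, genotype change or second condition is labelled, so both libraries form 1 group. Both carry the same source sample in the labels, so they may not be independent of each other, and the line stands for 1 embryo. The libraries held 43163300 and 45573512 expected counts on genes. Levels are in TPM, a share of all transcripts corrected for length, so they can be compared between genes. Where a pair of values is given, replicate 1 comes first, and means carry the SD over n = 2 libraries. With 1 library on each side no p-value was computed between them. The 6 embryonic stem cell markers (Pou5f1, Sox2, Nanog, Zfp42, Esrrb and Dppa5a) were all above 1 TPM and summed to 936.16 and 1013.53 TPM. The 10 fibroblast markers, which feeder cells would carry, summed to 49.14 and 165.57 TPM, with Lum at 0 counts in both. The 10 blood and B cell markers summed to 8.23 and 17.85 TPM, with Tyrobp at 0 in both and Ptprc at 0 and 26 counts. The immunoglobulin genes Ighm (28 and 541 counts; 0.26 and 5.27 TPM) and Igkc (5 and 65 counts; 0.39 and 5.37 TPM) were past 2-fold higher in replicate 2.

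Of the 50 genes, 46 stood at 1 TPM or more in both libraries, against 46.3% of the 21474 protein-coding genes. The 4 below that limit were Psmb8 and Psmb9 of the immunoproteasome, the thymus subunit Psmb11 and Psme2b, a near copy of the activator gene Psme2. Together the 50 genes took 1367.15 and 2142.98 TPM, which was 0.707% and 0.899% of the TPM of protein-coding genes. They carried 119564 and 184534 expected counts. Across the 47 genes averaging 1 TPM or more, log2 levels in the libraries had Pearson r = 0.964 and Spearman rho = 0.944. This is across genes, which are not independent replicates.

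**Figure D1:**
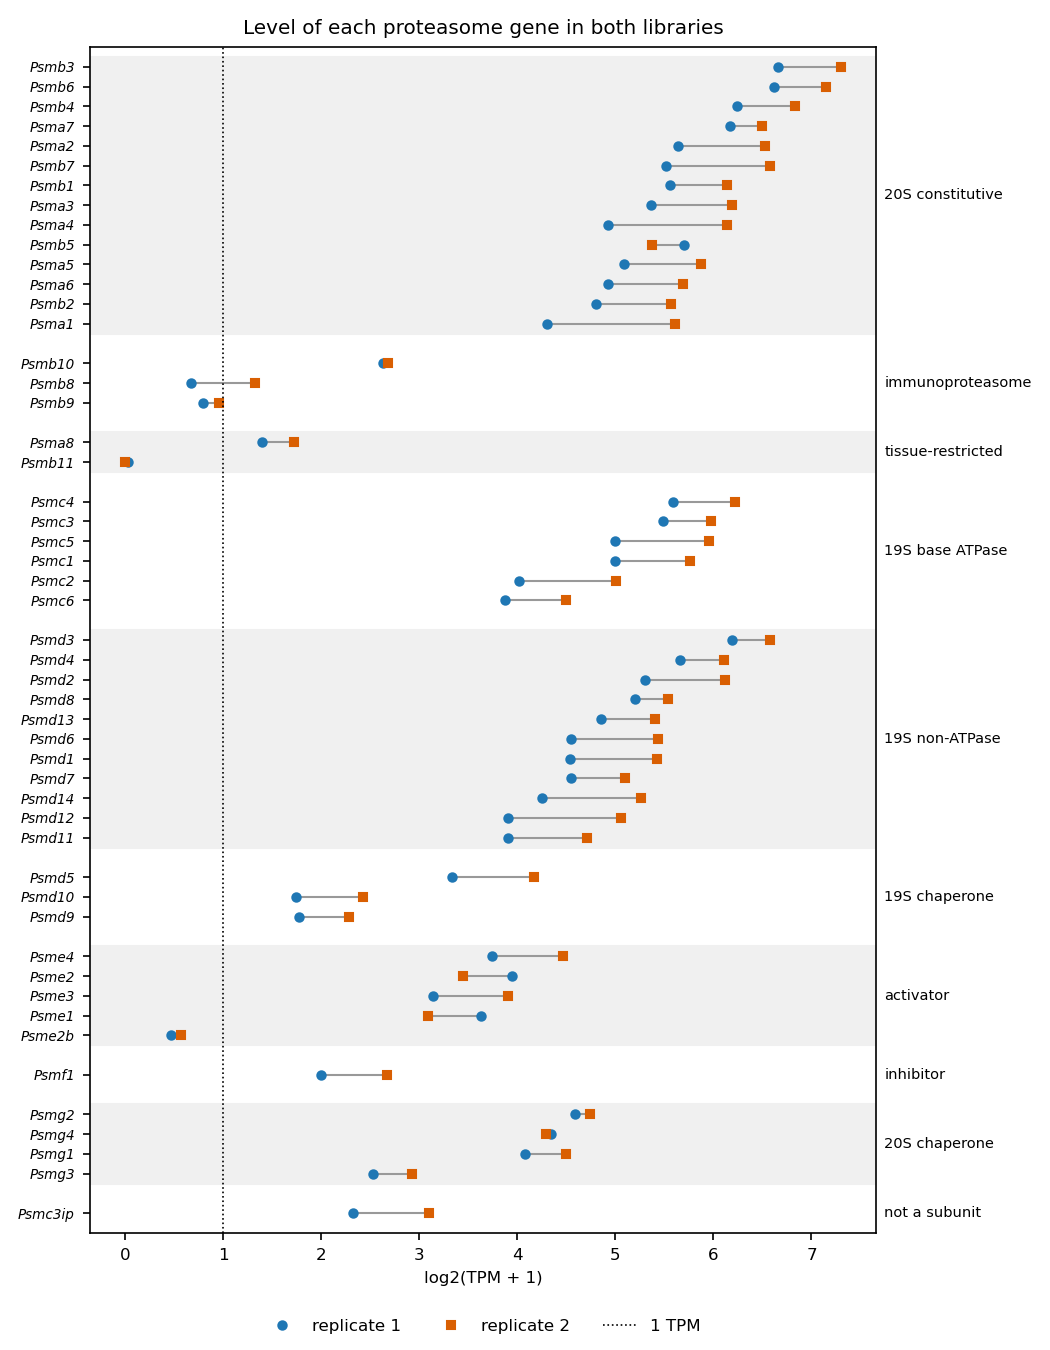
Level of each of the 50 genes as log2(TPM + 1) in replicate 1 (circles) and replicate 2 (squares), grouped by role, with a dotted line at 1 TPM. The 14 constitutive 20S genes and the 17 genes of the 19S cap lie far to the right of the immunoproteasome and tissue-restricted genes.

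The 14 constitutive 20S genes were among the more abundant messages of these cells. Their median was 45.4 and 70.6 TPM, at percentile 94.0 and 95.5 of protein-coding genes in the same library. They also lay close to each other: the highest stood 5.36-fold and 3.87-fold above the lowest. The ratio of the upper to the lower quartile among the 14 was 2.17 and 1.79, against 5.16 and 5.05 among protein-coding genes.

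Psmb3, the beta3 subunit (ENSMUSG00000069744; GRCm38 chromosome 11, 97703399 to 97713500), was the highest of all 50 at 100.36 and 156.43 TPM, a mean of 128 ± 39.6. Psmb6, the caspase-like catalytic subunit beta1 (ENSMUSG00000018286; chromosome 11, 70525367 to 70527858), followed at 96.87 and 140.48 TPM, a mean of 119 ± 30.8. Both genes were high in both libraries, and their ranges overlapped. Psmb7, the trypsin-like subunit beta2 (ENSMUSG00000026750; chromosome 2, 38588036 to 38644087), stood at 44.86 and 94.53 TPM, a mean of 69.7 ± 35.1. Psmb5, the chymotrypsin-like subunit beta5 that the drug bortezomib binds (ENSMUSG00000022193; chromosome 14, 54614119 to 54618022), stood at 50.80 and 40.43 TPM, a mean of 45.6 ± 7.33. It was the lowest of the 7 beta genes in replicate 2, and it alone of the 14 was lower there than in replicate 1.

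The beta genes without a catalytic site ran from Psmb2 at 26.83 and 46.31 TPM to Psmb3. Psmb4 was at 74.43 and 112.59 TPM and Psmb1 at 46.03 and 69.31 TPM. Among the alpha genes, which form the outer rings and the gate, Psma7 was highest in replicate 1 at 71.07 TPM, with 89.35 TPM in replicate 2. Psma2 stood at 48.71 and 91.07 TPM, so the order of these 2 genes turned between the libraries. Psma1 (ENSMUSG00000030751; chromosome 7, 114264606 to 114276118) was the lowest of the 14 on average at 18.71 and 47.86 TPM, a mean of 33.3 ± 20.6. Psma4 (ENSMUSG00000032301; chromosome 9, 54950790 to 54958030) stood at 29.45 and 69.34 TPM. Psma3 was at 40.10 and 71.86 TPM, Psma5 at 33.04 and 57.45 TPM, and Psma6 at 29.41 and 50.58 TPM. The median was 33.0 and 69.3 TPM for the 7 alpha genes and 50.8 and 94.5 TPM for the 7 beta genes. Most neighbours in this order lie within the spread of the libraries, so the ranks between Psmb3 and Psma1 are not firm.

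The promoters of these genes were read for short motifs, since the factors NFE2L1 and NFE2L2 are known to bind proteasome promoters at antioxidant response elements, and NF-Y, Sp, ETS and NRF1 proteins bind many housekeeping promoters. RefSeq gave 45 windows for 42 of the 50 genes, each taken as the 250 bases before a RefSeq transcription start on GRCm38.p6. Stretches are printed below for 6 genes, chosen after the matches were seen. Psmb6 and Psmb5 were taken for contrast among the catalytic genes, and Psmb10 for the immunoproteasome. Psma1 and Psmd12 were taken for their difference between the libraries. Psmc6 was taken because its printed stretch holds the most matches of the 6. Bases that GENCODE annotates as exon were left out, so some stretches are shorter than the window. Capitals mark motif matches on either strand, and each stretch is on the strand of its gene.

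Psmb6 (chr11:70525107-70525356, plus strand): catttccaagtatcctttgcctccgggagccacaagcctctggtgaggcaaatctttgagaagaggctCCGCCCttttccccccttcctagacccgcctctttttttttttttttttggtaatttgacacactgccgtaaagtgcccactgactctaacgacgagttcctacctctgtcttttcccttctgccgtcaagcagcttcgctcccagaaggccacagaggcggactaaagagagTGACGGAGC
Psmb5 (chr14:54618023-54618245, minus strand): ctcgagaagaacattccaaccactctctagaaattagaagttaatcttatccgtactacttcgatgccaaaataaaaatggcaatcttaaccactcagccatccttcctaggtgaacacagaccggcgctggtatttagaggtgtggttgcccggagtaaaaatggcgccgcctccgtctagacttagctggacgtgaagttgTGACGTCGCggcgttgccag
Psmb10 (chr8:105938445-105938642, minus strand): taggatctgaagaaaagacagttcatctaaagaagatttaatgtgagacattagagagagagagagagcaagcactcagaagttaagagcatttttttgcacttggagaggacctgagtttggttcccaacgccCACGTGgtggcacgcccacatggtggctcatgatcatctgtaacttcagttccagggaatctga
Psma1 (chr7:114276119-114276366, minus strand): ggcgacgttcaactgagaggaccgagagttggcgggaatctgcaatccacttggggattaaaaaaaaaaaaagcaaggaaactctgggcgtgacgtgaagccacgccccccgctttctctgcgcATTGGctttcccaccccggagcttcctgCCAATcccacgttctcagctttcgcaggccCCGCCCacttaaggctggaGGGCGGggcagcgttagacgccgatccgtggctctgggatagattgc
Psmd12 (chr11:107479278-107479483, plus strand): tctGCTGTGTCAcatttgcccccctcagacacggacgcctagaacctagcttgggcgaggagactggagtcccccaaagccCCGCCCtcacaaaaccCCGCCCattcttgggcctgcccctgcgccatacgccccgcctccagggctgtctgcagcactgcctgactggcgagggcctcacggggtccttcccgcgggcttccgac
Psmc6 (chr14:45329574-45329787, plus strand): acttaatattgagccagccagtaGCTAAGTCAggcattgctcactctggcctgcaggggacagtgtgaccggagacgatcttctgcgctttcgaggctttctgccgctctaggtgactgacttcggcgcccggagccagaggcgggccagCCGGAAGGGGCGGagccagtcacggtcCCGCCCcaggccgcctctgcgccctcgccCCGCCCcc

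In the Psmb6 stretch the capitals are a GC box match and, 9 bases before the start, TGACGGAGC, a match to the antioxidant response element letters TGACNNNGC. Psmb5 has its only match, TGACGTCGC, to the same letters 47 bases before the start. In Psmd12 and Psmc6 the match lies on the opposite strand, as GCTGTGTCA and GCTAAGTCA, 247 and 227 bases before the start. Psmc6 also holds the ETS letters CCGGAAG run into a GC box. Psmd12 has the ETS letters too, outside its printed stretch. Psma1 holds CCAAT on both strands and 2 GC boxes. Psmb10 has 1 match, the E-box CACGTG.

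Over all windows, TGACNNNGC was found in 5 of 45 (11.1%; Psmb5, Psmb6, Psmc6, Psmd9 and Psmd12), against 10.2% of all 32851 RefSeq windows of that length. CCAAT was found in 15 (33.3%, against 33.8%) and TATAA in 7 (15.6%, against 22.8%). CCGGAAG stood in 14 windows (31.1%, against 6.91%), GGGCGG in 23 (51.1%, against 32.7%) and the NRF1 motif in 6 (13.3%, against 3.74%). The 6 NRF1 matches were in Psma2, Psma3, Psma4, Psmc4, Psmc5 and Psmd14. NRF1 here is not NFE2L1, whose antioxidant response element letters were near their background (11.1%, against 10.2%). The core of the interferon-stimulated response element stood in 3 windows (6.67%, against 2.98%), of Psmb3, Psmd4 and Psmd9, and the GAS letters TTCNNNGAA in 2 (4.44%, against 7.02%), of Psmb8 and Psmg1. CACGTG was in 4 windows (8.89%, against 6.02%). Letters were searched on both strands, matches may overlap, and a match is not a bound site.

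The immunoproteasome genes were low in both libraries. Psmb8, which can replace Psmb5 (ENSMUSG00000024338; chromosome 17, 34197721 to 34201454), stood at 0.59 and 1.5 TPM, from 47 and 112 expected counts. Psmb9, which can replace Psmb6 (ENSMUSG00000096727; chromosome 17, 34181987 to 34187764), stood at 0.73 and 0.94 TPM, from 74 and 86 counts. Psmb10, which can replace Psmb7 (ENSMUSG00000031897; chromosome 8, 105935735 to 105938444), stood at 5.18 and 5.39 TPM, from 448 and 443 counts. Psmb10 was thus the highest of the 3 in both libraries, and its values did not overlap those of the other two.

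Set against its constitutive partner, Psmb9 was 133-fold and 149-fold lower than Psmb6, a log2 ratio of -7.14 ± 0.12 (SD, n = 2). Psmb8 was 86.1-fold and 27.0-fold lower than Psmb5, a log2 ratio of -5.59 ± 1.18. Psmb10 was 8.66-fold and 17.5-fold lower than Psmb7, a log2 ratio of -3.62 ± 0.72. The pair at beta1 was farthest apart and the pair at beta2 nearest in both libraries, and the values of the 3 pairs did not overlap. The widest spread was at beta5, where Psmb8 was higher and Psmb5 lower in replicate 2. Summed over the 6 catalytic genes, the immunoproteasome genes gave 3.27% and 2.76% of the TPM.

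**Figure D2:**
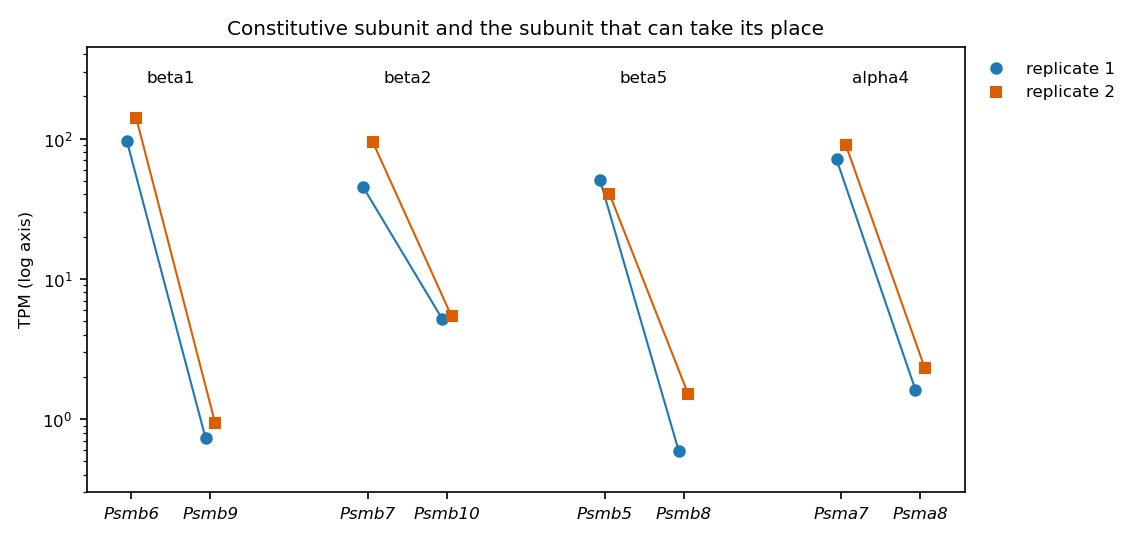
TPM on a log axis of each constitutive subunit and of the subunit that can take its place, joined by a line for replicate 1 (circles) and replicate 2 (squares). All 8 lines run down, steepest at beta1, where Psmb9 was 133-fold and 149-fold below Psmb6.

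Psmb8 and Psmb9 lie in the MHC class II region beside the peptide transporter genes Tap1 and Tap2, and Psmb9 overlaps Tap1, on the opposite strand, by 212 bases. Whether counting used strand is not stated in the sources used here, so reads in that stretch cannot be assigned with certainty. Tap1 itself stood at 4.17 and 2.72 TPM and Tap2 at 0.98 and 0.91 TPM. In the deposited percents Psmb8 was split mainly between 2 coding transcripts. Psmb8-203 was given 60.1% and 58.1% of the gene's output and Psmb8-201 27.5% and 36.8%. With 47 and 112 expected counts for the whole gene, that split is uncertain.

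The other tissue-restricted subunits were also low. Psma8, the alpha4 form of the testis proteasome (ENSMUSG00000036743; chromosome 18, 14706151 to 14762301), stood at 1.62 and 2.30 TPM, from 193 and 261 counts. It was 43.9-fold and 38.8-fold lower than Psma7, the alpha4 subunit of other cells. Psmb11, the beta5 form of the thymus cortex (ENSMUSG00000072423; chromosome 14, 54621433 to 54629556), had 5 counts and 1 count, and was listed at 0.02 and 0.00 TPM. At that depth it cannot be told from absence.

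All 17 subunit genes of the 19S cap within the symbol rule were above 10 TPM in both libraries. Their median was 27.8 and 42.2 TPM, below the 45.4 and 70.6 TPM of the 20S core. Among the 6 base ATPases, which unfold the substrate and open the gate, Psmc4 (ENSMUSG00000030603; chromosome 7, 28041707 to 28050101) was highest at 46.93 and 73.58 TPM. Psmc6 (ENSMUSG00000021832; chromosome 14, 45329788 to 45349705), whose promoter letters are given above, was lowest at 13.61 and 21.49 TPM. The 2 did not overlap. Psmc2 (ENSMUSG00000028932; chromosome 5, 21785283 to 21803787) was next lowest at 15.23 and 31.09 TPM. Psmc1 stood at 30.83 and 53.27 TPM, Psmc3 at 43.92 and 62.00 TPM, and Psmc5 at 31.00 and 60.90 TPM. The base ring thus spanned 3.45-fold and 3.42-fold from lowest to highest.

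Among the 11 non-ATPase subunits Psmd3, a scaffold of the lid (ENSMUSG00000017221; chromosome 11, 98682554 to 98695979), was highest at 72.21 and 94.27 TPM. Psmd4, a ubiquitin receptor, followed on average at 49.69 and 68.10 TPM, then Psmd2, the large base scaffold, at 38.35 and 68.46 TPM, with both near the same level in replicate 2. Psmd11, a lid subunit that contacts the 20S barrel (ENSMUSG00000017428; chromosome 11, 80428615 to 80473248) was lowest on average at 14 and 25.22 TPM. Psmd12, another lid subunit (ENSMUSG00000020720; chromosome 11, 107479484 to 107504362), stood at 13.97 and 32.35 TPM. Psmd14, the deubiquitinase that cuts chains from substrates (ENSMUSG00000026914; chromosome 2, 61711694 to 61800376), stood at 17.99 and 37.28 TPM. The remaining lid and base genes lay between these: Psmd1, the other large scaffold, at 22.13 and 41.85 TPM, Psmd6 at 22.41 and 42.22 TPM, Psmd7 at 22.31 and 33.14 TPM, Psmd8 at 35.83 and 45.37 TPM and Psmd13 at 27.82 and 41.36 TPM.

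The 19S assembly chaperones, which hold base ATPases before they join the particle, were lower than the subunits. Psmd5 (ENSMUSG00000026869; chromosome 2, 34849734 to 34874968) was at 9.06 and 16.98 TPM and Psmd10, also called gankyrin, at 2.35 and 4.36 TPM. Psmd9 (ENSMUSG00000029440; chromosome 5, 123169413 to 123250131) was at 2.41 and 3.85 TPM, so Psmd9 and Psmd10 overlapped. Of the 20S assembly chaperones, which guide the alpha ring, 3 were above all 19S chaperones in both libraries: Psmg2 (ENSMUSG00000024537; chromosome 18, 67641599 to 67654162) stood at 23.11 and 25.66 TPM, Psmg4 at 19.23 and 18.63 TPM and Psmg1 at 15.92 and 21.51 TPM. Psmg3 (ENSMUSG00000029551; chromosome 5, 139823592 to 139826885), the partner of Psmg4, was lowest at 4.75 and 6.57 TPM.

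The activators open the gate of the 20S barrel without ATP. Psme4, which caps nuclear particles (ENSMUSG00000040850; chromosome 11, 30771726 to 30880361), was highest on average at 12.36 and 21.01 TPM. Psme1 (ENSMUSG00000022216; chromosome 14, 55578123 to 55581529) stood at 11.35 and 7.49 TPM and Psme2 (ENSMUSG00000079197; chromosome 14, 55587441 to 55591113) at 14.40 and 9.88 TPM. These 2 make the interferon-inducible PA28 ring together, and both stood above Psmb8, Psmb9 and Psmb10 in both libraries. Psme3, which makes the nuclear PA28 gamma ring, was at 7.79 and 13.97 TPM. Psme2b (ENSMUSG00000078153; chromosome 11, 48945354 to 48946190) was listed at 0.38 and 0.48 TPM from 19.9 and 24.1 fractional counts, and it shares reads with Psme2, so its level is uncertain. Psmf1, which inhibits the 20S particle (ENSMUSG00000032869; chromosome 2, 151715812 to 151744186), stood at 3 and 5.38 TPM. Psmc3ip fits the symbol rule but encodes a recombination factor, not a subunit, and stood at 4 and 7.54 TPM.

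Proteasome messages took a larger share of replicate 2 than of replicate 1. Of the 47 genes averaging 1 TPM or more, 43 were higher in replicate 2, against 71.7% of the 10480 protein-coding genes at that level. The median difference in log2(TPM + 1) was 0.65 for the 47 genes and 0.23 for protein-coding genes. TPM depends on what else is in the library, so the same was asked of counts scaled by TMM, which centre protein-coding genes near 0 (median log2 ratio 0.02). On that scale 41 of 47 were higher, against 51.5%, and with DESeq2 size factors 41, against 53.5%. Across all 7 scales tried, the median of the 47 exceeded that of protein-coding genes by 0.41 to 0.47. Members share their libraries and are not replicates, so these counts describe 2 libraries.

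All 17 cap subunits within the symbol rule were higher in replicate 2. The median difference was 0.70 for the base ATPases and 0.81 for the non-ATPases. All 7 alpha genes were higher, with a median of 0.83, and 6 of 7 beta genes, with a median of 0.59. These directions held on the TMM scale, where Psma7, Psmd3 and Psmd8 lay nearest to 0 at 0.05, 0.07 and 0.04. The 4 assembly chaperones Psmg1 to Psmg4 had a median of 0.27 in TPM and -0.03 on the TMM scale, and the 4 activators above 1 TPM had 0.11 and -0.14. The sign of both medians thus depends on the scale. Psmg2 was higher in replicate 2 in TPM (a difference of 0.15) and lower on the TMM scale (-0.15), and Psmb10 likewise (0.05 and -0.25).

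**Figure D3:**
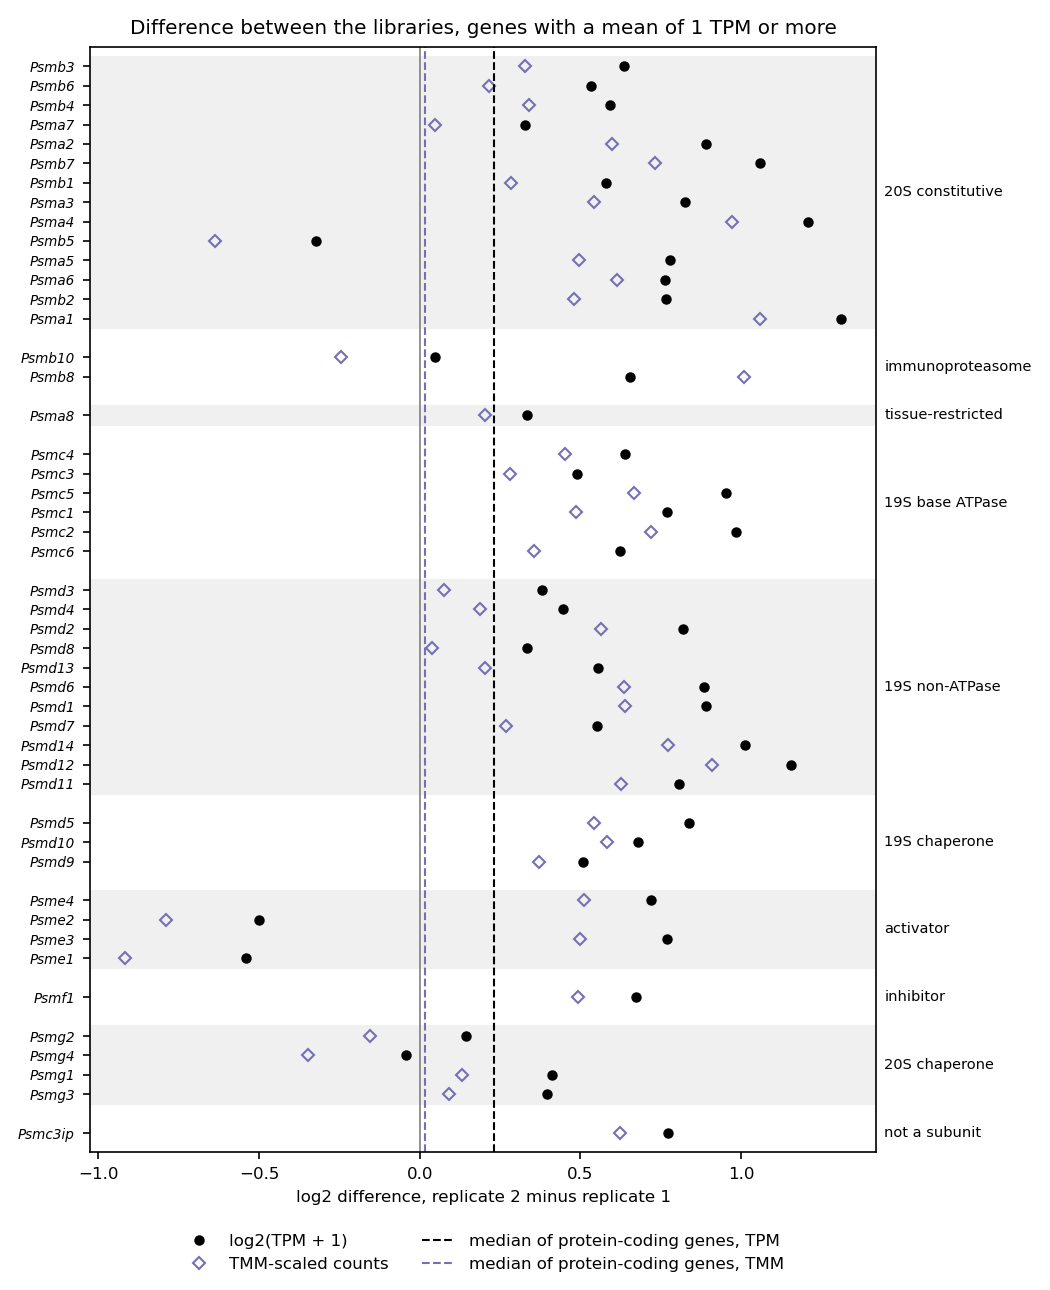
Log2 difference between replicate 2 and replicate 1 for the 47 genes averaging 1 TPM or more, from TPM (filled circles) and from TMM-scaled counts (open diamonds), with dashed lines at the medians of protein-coding genes, 0.23 and 0.02. All cap subunits shown lie right of 0 on both scales, and Psmb5, Psme1, Psme2 and Psmg4 lie left of it on both.

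At 2-fold, 7 genes were higher in replicate 2 (background 6.44% of protein-coding genes) and 0 lower (background 1.43%). The widest ratio was that of Psma1, 18.71 and 47.86 TPM, a log2 ratio of 1.36. The deposited intervals for Psma1 (confidence level not stated in the sources used here) were 17.7 to 19.7 and 46.1 to 49.3 TPM and did not overlap. Psmb8 had a ratio of 1.35 on low counts, with intervals of 0.408 to 0.827 and 1.19 to 1.87 TPM. Psma4 had 1.24, Psmd12 1.21, Psmb7 1.08, Psmd14 1.05 and Psmc2 1.03. With TMM scaling only Psma1 and Psmb8 stayed past 2-fold (background 2.46% higher and 3.51% lower), as with DESeq2 size factors (2.6% and 3.15%). The 5 others then had log2 ratios of 0.72 to 0.97.

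The genes that were lower in replicate 2 were Psmb5, Psme1, Psme2 and Psmg4, of which the first 3 lie on chromosome 14 within about a megabase. Psmb5 had a TMM log2 ratio of -0.64, Psme2 of -0.79 and Psme1 of -0.92. The deposited intervals of Psmb5, 48.7 to 52.4 and 38.5 to 41.9 TPM, did not overlap, nor did those of Psme1, 10.9 to 12.7 and 7.19 to 8.86 TPM. The pattern was not particular to these 3 genes: other genes beside them were lower as well, as set out next.

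Genes around Psme1 and Psme2 were lower in replicate 2 whatever they encode. All 8 other protein-coding genes with a mean of 1 TPM within 50 kb were lower, in TPM and on the TMM scale, with a median difference of -0.64. They included Irf9, an interferon signalling factor, at 3.42 and 1.37 TPM, Rnf31, a ubiquitin ligase, at 6.20 and 3.02 TPM, and Pck2, a mitochondrial metabolic enzyme, at 10.91 and 3.73 TPM. Around Psmb5, 21 of 21 other protein-coding genes within 500 kb were lower on the TMM scale, with a median of -0.92. Psmb5 at -0.64 was thus less low than its surroundings, by 0.28. Around Psme1 and Psme2 the median within 500 kb was -0.96, and they stood 0.04 and 0.17 above it.

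The lower levels extended over most of chromosome 14. Among 20 chromosomes, the median TMM log2 ratio of other protein-coding genes was -0.46 on chromosome 14, and from -0.11 to 0.17 on the other 19. On chromosome 14, 266 of 349 other genes were lower on that scale (76.2%). From 0 to 20 Mb, where Psmd6 lies, and from 20 to 40 Mb, the medians were 0.11 and 0.06. From 40 to 60 Mb, where Psmc6, Psmb5, Psme1 and Psme2 lie, 102 of 107 other genes were lower (95.3%), with a median of -0.71. From 60 to 80 Mb it was 83 of 88, with a median of -0.63, and the medians of the stretches beyond lay between -0.48 and -0.56. Psmc6 (TMM log2 ratio 0.36) and Psmd6 (0.64) on the same chromosome were higher in replicate 2. DNA was not measured, and whether the cells behind the libraries differed in this chromosome was not tested.

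**Figure D4:**
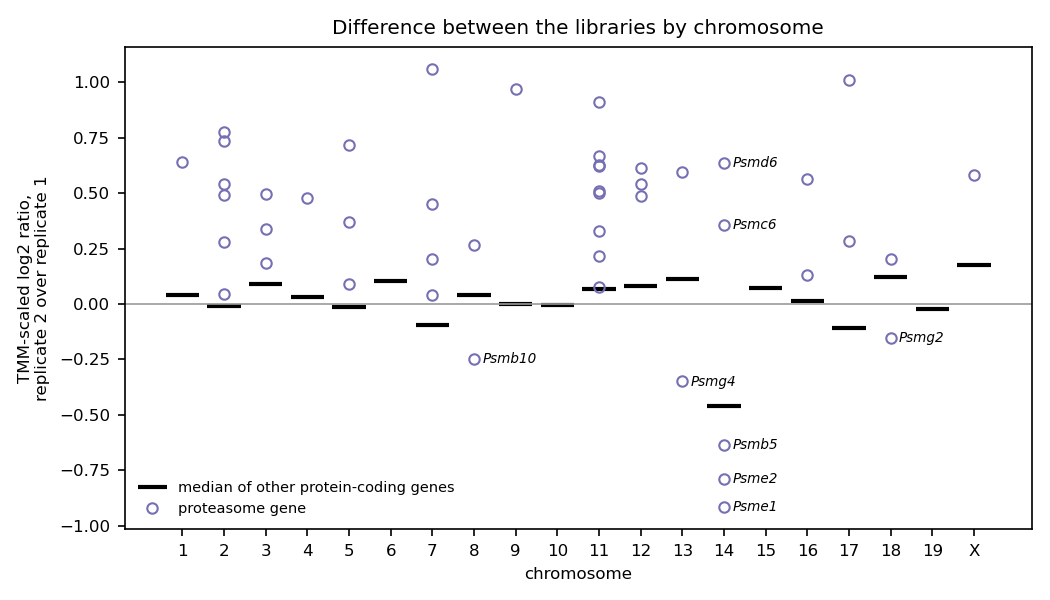
TMM-scaled log2 ratio of replicate 2 over replicate 1 for the 47 genes (circles) by chromosome, with a bar at the median of the other protein-coding genes of that chromosome. The bar of chromosome 14 lies at -0.46, below the range of -0.11 to 0.17 of the others, and Psmb5, Psme2 and Psme1 lie below it.

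With the 5 genes of chromosome 14 left out, 41 of 42 were higher in replicate 2 in TPM, against 72.8% of other protein-coding genes not on that chromosome, and 39 of 42 on the TMM scale, against 52.3%. Each gene was also set against the other protein-coding genes within 500 kb of it. Of 38 genes with at least 5 such neighbours, 34 exceeded their neighbours' median on the TMM scale, by a median of 0.36. The 4 below were Psmb10, Psmg2, Psmg3 and Psmg4. In TPM it was 33 of 38, by a median of 0.35, and Psme1 and Psme2 were then 0.10 and 0.06 below their neighbours. The same share was not computed for other protein-coding genes, so the counts against neighbours have no background.

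GC content moved with the difference too. Across the 47 genes the GC content of the most abundant transcript and the difference had r = -0.50 and rho = -0.59, as a description across genes that share both libraries. Across 10403 protein-coding genes these were -0.30 and -0.32. The 16 genes of lowest GC (37.0% to 47.1%) had a median difference of 0.83 and the 16 of highest GC (52.7% to 58.3%) one of 0.47. Protein-coding genes split at the same bounds had 0.35 and 0.10, so proteasome genes stood above them at both ends. The 7 genes past 2-fold had a median GC of 45.0% and the 4 lower genes 55.0%, while Psmb8 at 57.6% was an exception. Of the 4 lower genes, Psmb5, Psme1 and Psme2 lie in the part of chromosome 14 where most genes were lower. The correlations include them, so GC and position cannot be told apart for these genes. The fibroblast markers also differed, with 6 of the 7 at a mean of 1 TPM more than 2-fold higher in replicate 2, and the part of GC or of such cells in the result was not tested.

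**Figure D5:**
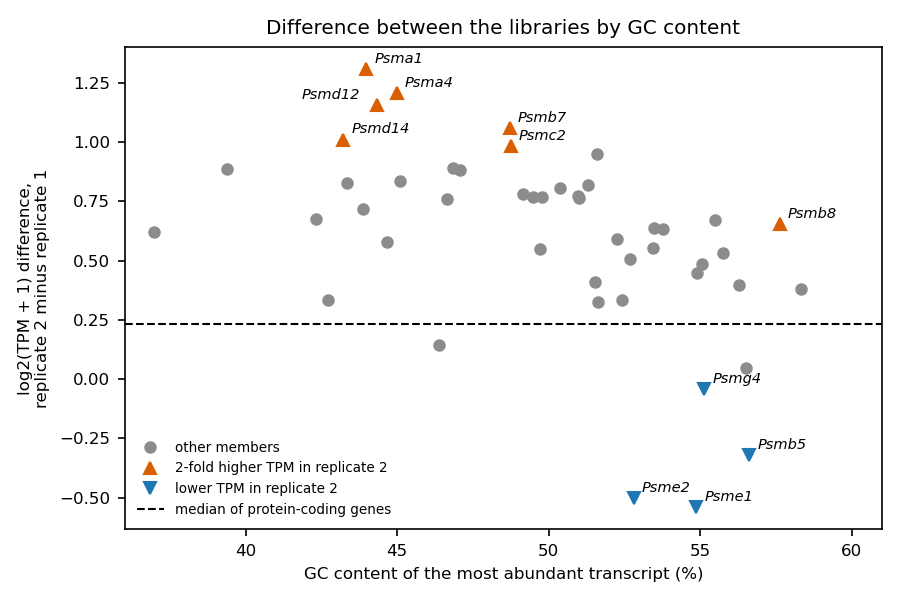
Log2(TPM + 1) difference between the libraries against the GC content of the most abundant transcript, for the 47 genes averaging 1 TPM or more. Upward triangles mark the 7 genes 2-fold higher in replicate 2, downward triangles the 4 lower genes, and the dashed line the median of protein-coding genes at 0.23.

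Each gene kept its leading transcript between the libraries, while shares differed. Of the 38 genes with several annotated transcripts and a mean of 1 TPM, all 38 had the same leading transcript in both, against 85.8% of 7815 protein-coding genes. The leader was a non-coding transcript in 2, Psma3 and Psmc3ip (background 6.72%). In Psma3 the retained-intron transcript Psma3-203 took 42.6% and 41.1% of the gene's output and its main coding transcript took 33.1% and 35.9%, so its gene TPM overstates the coding message. Psmb4 came next, with 54.1% and 59.2% from the coding Psmb4-201 and 29.95% and 25.05% from the retained-intron Psmb4-202.

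The share of TPM from coding transcripts was higher in replicate 2 in 29 of the 38 genes and lower in 5, against 59.7% of protein-coding genes with a higher share. Its median was 90.8% and 94.3%. The widest gain was in Psma6, whose processed transcript Psma6-203 took 19.8% and 4.98%. In Psmd9 the processed transcript Psmd9-202 took 25.4% and 12.0%. Psmd13 went the other way: Psmd13-211, annotated for nonsense-mediated decay, was listed at 0% and 23.1%. Psmd10 differed between coding forms, with Psmd10-202 at 21.2% and 34.9%. Psmd4 was led by Psmd4-202 at 49.4% and 60.7%.

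Assembly and associated factors outside the symbol rule differed in how far they were higher in replicate 2. All 9 that were found stood above 1 TPM and were higher in replicate 2, in TPM (background 71.7%) and on the TMM scale (background 51.5%), with a median TPM difference of 0.78. The highest were Pomp, the maturation factor of the beta ring, at 26.62 and 54.90 TPM, the ubiquitin receptor Adrm1 at 32.13 and 44.97 TPM and the small lid subunit Sem1 at 27.54 and 34.65 TPM. Ecpas, a scaffold of the particle, was lowest at 2.05 and 5.48 TPM. Pomp and Ecpas were past 2-fold in TPM but not on the TMM scale, where their log2 ratios were 0.74 and 0.96. Adrm1 and Sem1 had TMM log2 ratios of 0.09 and 0.03, near the protein-coding median of 0.02.

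Of 13 genes that act in the transcription of proteasome genes, 11 were detected, all 11 higher in replicate 2 in TPM (background 71.7%) and 9 on the TMM scale (background 51.5%), with a median TPM difference of 0.43. Vcp, the segregase that helps to release NFE2L1 from the endoplasmic reticulum, was highest on average at 29.73 and 61.71 TPM, past 2-fold in TPM and at a log2 ratio of 0.79 on the TMM scale. Nfe2l1, the factor known for raising proteasome genes when the particle is inhibited, was at 41.40 and 46.54 TPM, above Vcp in replicate 1. Its TMM log2 ratio was -0.29, so it was lower in replicate 2 on that scale. Nfyc, a CCAAT-binding subunit, was at 9.40 and 15.66 TPM and Nfe2l3 was lowest at 0.69 and 0.32 TPM.

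Genes for antigen presentation and the interferon response were mixed in direction in TPM, and on both scales fewer were higher than the background share. Of 9 antigen presentation genes with a mean of 1 TPM, 4 were higher in replicate 2 (background 71.7%) and 5 lower. Their median TPM difference was -0.01. On the TMM scale 2 were higher (background 51.5%), with a median log2 ratio of -0.26. Position may bear on this: Tap1 lies beside Psmb8 on chromosome 17. Within 500 kb of Psmb8, 23 of 34 other protein-coding genes, Tap1 among them, were lower on that scale, with a median of -0.33. Over the whole of chromosome 17 the share lower was 60.5%. The part of position in this list was not tested. The chaperones Calr (264.23 and 262.83 TPM), Canx (230.98 and 235.87 TPM) and Pdia3 (42.09 and 64.26 TPM) were highest. B2m, the light chain of MHC class I, was at 7.37 and 17.08 TPM, past 2-fold, while the heavy chain gene H2-K1 was at 21.28 and 12.86 TPM. On the TMM scale B2m was under 2-fold, with a log2 ratio of 0.90, and H2-K1 past it in the other direction, with -1.04. Nlrc5, the activator of class I genes, was lowest at 0.22 and 0.17 TPM.

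Of 15 interferon response genes, 8 were detected in both libraries. Of the 10 with a mean of 1 TPM, 5 were higher in replicate 2 (background 71.7%) and 5 lower. On the TMM scale 4 were higher (background 51.5%), with a median log2 ratio of -0.21. Irf1, which induces Psmb9 in other cells, was highest at 7.76 and 6.62 TPM, followed by Jak1 at 3.27 and 5.24 TPM. Ifit1 and Ifit3, strongly induced by interferon, had 1 to 5 counts a library. Past 2-fold were Jak2 (0.87 and 2.49 TPM) and Irgm1 (0.64 and 1.47 TPM), both higher, and Irf9, lower, which lies beside Psme2. On the TMM scale Jak2 (log2 ratio 1.22) and Irf9 (-1.36) kept the call and Irgm1 (0.66) did not.

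Ubiquitin and shuttle genes were all detected, 12 of 12, and 9 of them were higher in replicate 2 in TPM (background 71.7%) and on the TMM scale (background 51.5%), with a median TPM difference of 0.48. The TPM count is near its background. Among the ubiquitin genes Ubb stood at 267.07 and 403.27 TPM and Rps27a at 182.38 and 278.68 TPM, and the shuttle gene Ubqln2 was lowest of the list at 2.51 and 4.83 TPM.

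Read sharing could touch part of the 50 genes. The deposited posterior SD of the count was 0 in both libraries for 39 and above 0 for 11. On the annotation 24 of the 50 overlap another gene, 10 on the same strand and 19 on the opposite strand. Their counts could thus hold reads of that gene. The same shares over all genes are not given here.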

How the data were processed

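Total RNA-seq libraries of ES-E14 cells were used, 2 libraries of 1 group. The deposited text file names mm10 and annotation M4; aligner, quantifier and use of strand are not stated in the sources used here. Per the file headers, the deposited gene and transcript tables give an expected count, TPM, FPKM and effective length. The deposited posterior mean TPM, interval bounds and posterior SD of the count were used as the authors' signal values. The deposited percent of a gene's output by transcript was used as given.

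GENCODE M21 (GRCm38, the assembly of mm10) supplied symbols, biotypes and coordinates and matched 42462 of 43346 genes. Promoters came from RefSeq (GRCm38.p6). Detection was 1 TPM or more in both libraries, and the log scale is log2(TPM + 1), which understates differences of low genes. A 2-fold ratio was counted among protein-coding genes averaging at least 1 TPM. Expected counts were rounded and scaled by TMM (edgeR 4.0.16) and by DESeq2 1.42.0 size factors in R 4.3.3. The rest ran in Python 3.11.15 with pandas 2.3.3, numpy 2.4.6 and matplotlib 3.10.9. The scaling and fold steps were tested on simulated data. GC content is that of the most abundant transcript. Of 4 pseudogenes that fit the symbols, none was counted as a member.

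The members, the gene lists and the 9 motifs were chosen with earlier results of these data known. By the rule for named genes, members are given in full when catalytic, tissue-restricted, highest or lowest of their class, or 2-fold apart; companion lists by their 3 highest, lowest and 2-fold genes, of which some are not reported here. Tap1, Tap2, H2-K1, Ifit1, Ifit3, Rnf31 and Pck2, the transcripts named and the comparison by chromosome were chosen after values were seen. The gene symbols Shfm1, Paaf1, Ecm29 and AI314180 had no match. Alternatives were posterior mean TPM, FPKM, TPM rescaled to nuclear protein-coding genes, other TPM limits, a pseudocount of 0.1, no filter, both count scalings and each library alone. Coding transcripts only, and leaving out chromosome 14, were added after seeing the data.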

Additional observations from a re-analysis of the deposited data

Results flagged for a closer look

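Psmb7-ps2, a transcribed pseudogene of Psmb7 on chromosome X (8105294 to 8106113) that the symbol rule leaves out, had an expected count of 1.4 in replicate 1 and 6.05 in replicate 2. The latter lies above the floor of 3 counts. Psmb7 itself had 3366 and 6566 counts with a posterior SD of 0.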

How the results depend on the processing

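The number of members detected stayed within 1.5 times of 46 under every alternative run (40 at a limit of 5 TPM, 49 with rescaled TPM; 46 and 47 in each library alone). The level of the constitutive core, a median log2(TPM + 1) of 5.81, was 6.57 in FPKM and 8.06 in rescaled TPM, and 5.54 to 6.16 in each library alone. The log2 ratio of Psmb9 to Psmb6 was -6.77 with posterior mean TPM and -6.89 with coding transcripts only, against -7.14, and -7.22 to -7.05 in each library. Those of Psmb10 to Psmb7 (-4.13 to -3.11) and Psmb8 to Psmb5 (-6.43 to -4.75) moved by less than 1 SD under the other settings. The 7 members 2-fold higher became 4 with FPKM, 2 with rescaled TPM, 2 with TMM, 2 with DESeq2 size factors and 12 with coding transcripts only. With no filter 1 member, Psmb11, was 2-fold lower, on 5 counts and 1 count. The median difference of 0.65 was 0.46 with rescaled TPM, 0.48 with TMM, 0.50 with DESeq2 size factors and 0.76 with a pseudocount of 0.1, and 0.68 without the members on chromosome 14. These scalings also shift protein-coding genes, and the excess over their median was 0.41 to 0.47. The cause of the other shifts was not tested. The leading transcript was the same in all 38 genes with posterior mean percents too. No paired analysis was possible because the series has 1 group. Depth limits Psmb8, Psmb9, Psmb11 and Psme2b, and with 1 library a side no difference has a replicate check.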
